A study of Mus musculus with 4 samples.

Results

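Genes that mark fat cells were examined in skeletal muscle of mice without Crhr2, the type 2 receptor for corticotropin-releasing factor and the urocortins (KO), and of wild-type littermates (WT). The genes were chosen by name: Adipoq, Retn, Lep, Cfd, Pparg, Fabp4, Lipe, Scd1, Pck1 and Car3. Of the 10 names, 9 had a named probe set on the array, and these 9 genes were read by 12 of the 12422 probe sets tested. Cfd, which encodes adipsin, a protease of the alternative complement pathway secreted by fat cells, had no named probe set in the annotation used and is not analysed here.

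The KO group (Crhr2-/-) and the WT group (Crhr2+/+) were male mice aged 6.5 months on a mixed C57BL/6x129 background, fed chow and sampled without treatment. Gastrocnemius and soleus were sampled as 1 tissue. The 4 mice of a genotype gave 2 RNA pools, each from 2 mice. Each pool was hybridised to 1 Affymetrix U74Av2 array, so each genotype has 2 arrays and no value belongs to a single mouse. The sources used here do not say which part of Crhr2 was deleted.

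White adipocytes store triglyceride in a lipid droplet and release fatty acids from it on demand. They also secrete hormones, among them adiponectin, leptin and, in mice, resistin, which act on muscle, liver and brain. The nuclear receptor PPAR gamma, together with C/EBP factors, drives their differentiation and many of their marker genes. Skeletal muscle carries fat between its fibres and around its fascicles, so RNA of a dissected muscle includes RNA of adipocytes.

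Upstream sequence is shown for 4 members, Adipoq, Retn, Pck1 and Lep. Adipoq and Retn had the same ranking of the 4 arrays. Pck1 was the member with the higher KO mean and no overlap between groups. Lep was the member with its highest value in the WT pool where Adipoq and Retn were lowest. Each line gives the 250 bases before the annotated start of the gene, 5′ to 3′, from RefSeq on GRCm38.p6. Capitals mark matches, on either strand, to the CCAAT box (CCAAT), the TATA box (TATAAA), the nuclear receptor half-site (AGGTCA), the C/EBP motif (TTNCNNAA) or the cAMP response element (TNACGTCA), and no matches overlap in these 4 sequences.
Adipoq (chr16:23146286-23146535, forward strand): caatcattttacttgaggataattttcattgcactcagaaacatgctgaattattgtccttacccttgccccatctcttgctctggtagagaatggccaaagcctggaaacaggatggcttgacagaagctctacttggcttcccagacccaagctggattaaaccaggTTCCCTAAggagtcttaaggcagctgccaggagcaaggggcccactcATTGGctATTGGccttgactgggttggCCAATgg
Retn (chr8:3655520-3655769, forward strand): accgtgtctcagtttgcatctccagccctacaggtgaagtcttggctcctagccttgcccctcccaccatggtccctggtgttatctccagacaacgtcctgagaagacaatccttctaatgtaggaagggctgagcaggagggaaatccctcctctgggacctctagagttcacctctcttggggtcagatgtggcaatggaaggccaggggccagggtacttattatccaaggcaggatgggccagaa
Pck1 (chr2:173152823-173153072, forward strand): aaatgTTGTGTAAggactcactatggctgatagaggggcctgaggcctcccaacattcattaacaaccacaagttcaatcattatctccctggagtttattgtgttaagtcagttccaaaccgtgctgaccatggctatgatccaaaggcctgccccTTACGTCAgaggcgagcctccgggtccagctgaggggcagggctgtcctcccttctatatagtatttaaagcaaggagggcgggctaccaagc
Lep (chr6:29059971-29060220, forward strand): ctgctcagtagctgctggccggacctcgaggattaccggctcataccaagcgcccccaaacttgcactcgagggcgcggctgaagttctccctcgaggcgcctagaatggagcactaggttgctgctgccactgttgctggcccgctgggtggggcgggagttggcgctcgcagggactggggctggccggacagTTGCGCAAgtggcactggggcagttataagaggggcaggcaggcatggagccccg

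Adipoq held 3 matches to the CCAAT box within 34 bases of the start and 1 to the C/EBP motif, whereas the Retn window held none of the 5 motifs. Pck1 held the cAMP response element TTACGTCA from 93 to 86 bases before the start, and Lep the C/EBP match TTGCGCAA from 55 to 48 bases before it. Promoters were found for 6 of the 9 measured members (Fabp4, Car3 and Scd1 had none), 9 promoters in all because Pparg and Lipe have several starts. Over those 9, a match was found in 3 for the CCAAT box, 1 for the TATA box, 2 for the half-site, 4 for the C/EBP motif and 1 for the cAMP response element. Of all 32851 mouse promoters of this length, 33.8%, 12.4%, 14.0%, 36.8% and 2.52% held these motifs in the same order. A match is a description of letters, not a bound site.

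Signals are the authors' deposited linear intensities in arbitrary units, 1 per probe set and array. Fold changes are differences of log2(signal + 14), KO minus WT, with standard errors from limma, and adjusted p-values are over all 12422 probe sets. The pseudocount of 14 understates changes of dim probe sets. The standard errors and p-values rest on the spread between pools, which limma combines for each probe set with the spread of probe sets of like brightness. Signals of different probe sets are on different scales, so single values are compared between arrays within a probe set only. A signal summed over a marker list follows the brightest probe sets of that list.

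The depth of the comparison was set by its 4 arrays. Array medians were 67.6 and 71.1 in KO and 69.1 and 68.3 in WT. Ratios of 3′ to 5′ control signals, which follow RNA integrity and labelling, were 0.729 and 0.866 in KO and 0.624 and 0.686 in WT for actin, and 1.04 and 0.988 in KO and 0.889 and 0.914 in WT for Gapdh. Their part in the results was not tested. Crhr2 itself, on its brighter probe set, read 100.4 and 75.1 in KO and 154 and 192 in WT, a log2 fold change of -0.88 ± 0.25 (limma adjusted p = 0.803). Its other probe set overlapped between groups, at 36.7 and 22.7 in KO and 18.8 and 45.3 in WT. The labelled tissue was checked with 14 skeletal muscle markers, each with a signal of at least 489.8 on every array and with a summed signal of 139640 and 155206 in KO and of 146080 and 141687 in WT.

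No adipocyte gene passed the test between genotypes. An adjusted p under 0.05 (limma) was reached by 0 of the 12, and by 0.0% of all probe sets. At an unadjusted p under 0.05 there were 2 of the 9 genes, Pck1 with the higher mean in KO and Fabp4 with the lower, where 5.43% of all probe sets reached that level, 2.57% higher and 2.86% lower in KO. By means of log2(signal + 14), the scale of all counts by direction here, KO lay below WT for 5 genes (50.0% of all probe sets) and above it for 4, with a median log2 fold change of -0.10 over the 9 genes and 0.00013 over all probe sets. In bulk RNA, fewer adipocytes, less of the transcript per adipocyte and a change in other cells that make it cannot be told apart.

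**Figure D1:**
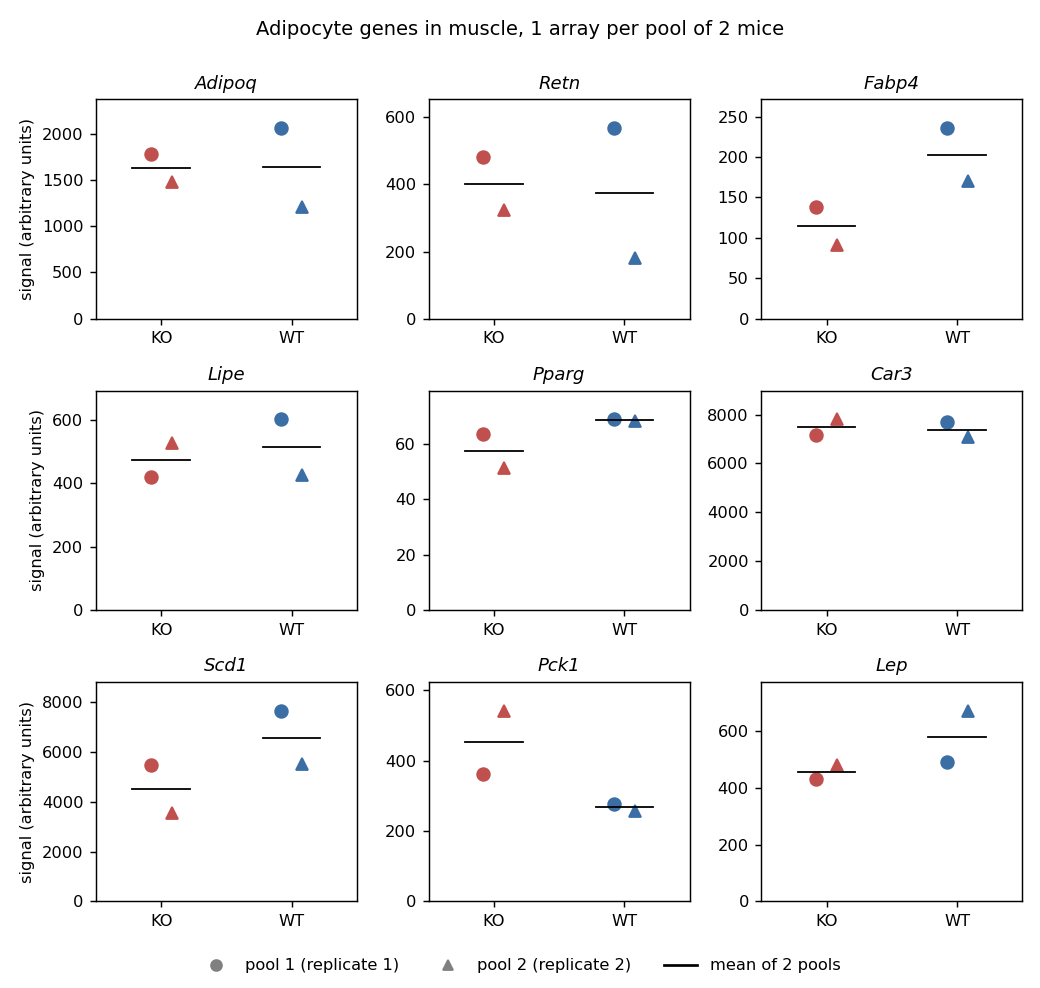
Signal (arbitrary units, axes from 0) of the 9 measured adipocyte genes in KO (left, red) and WT (right, blue) muscle, 1 probe set per gene. Circles are pool 1, triangles pool 2 and lines the mean of 2 pools. Adipoq and Retn have similar means in both groups and widely spaced WT pools, whereas the KO pools of Pck1 lie above both WT pools and those of Fabp4 below.

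Among the secreted hormones, Adipoq encodes adiponectin, which raises insulin sensitivity and fatty acid oxidation. Adipoq (Entrez gene 11450, chromosome 16) read 1777 and 1480.1 in KO and 2062 and 1213 in WT. The WT pools enclosed both KO pools, and the means were nearly the same, at 1628 ± 209.9 in KO and 1637 ± 600.4 in WT (SD, n = 2 each). Its log2 fold change was 0.04 ± 0.25 with a 95% interval of -0.56 to 0.63 (limma adjusted p = 0.991), of the other sign than the difference of the linear means.

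Retn encodes resistin, a hormone that in mice is made by white fat and opposes insulin action. Retn (Entrez gene 57264, chromosome 8) read 481 and 324 in KO and 568 and 182 in WT. Its arrays ranked as those of Adipoq, WT pool 1 first, then KO pool 1, KO pool 2 and WT pool 2. Markers of other cell types, such as Lum of stromal cells, had this order too. Of the 14 skeletal muscle markers, only Ckm had it. The 4 arrays of Ckm lay within a ratio of 1.10 of each other, against 1.70 for Adipoq and 3.13 for Retn. The share of all probe sets with this order was not counted. The means were 402 ± 111 in KO and 375 ± 273 in WT (SD, n = 2 each). The log2 fold change was 0.28 ± 0.49, with a 95% interval from -0.91 to 1.47, the widest of the 12 probe sets (limma adjusted p = 0.952).

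Lep encodes leptin, the satiety hormone whose level follows fat mass. Its brighter probe set (Entrez gene 16846, chromosome 6) read 430.4 and 481 in KO and 490.3 and 673 in WT. Both KO pools lay below both WT pools, by a narrow margin between KO pool 2 and WT pool 1. The means were 456 ± 35.8 in KO and 581 ± 129 in WT (SD, n = 2 each), and the log2 fold change was -0.33 ± 0.17 (95% interval -0.75 to 0.10, limma adjusted p = 0.908). The second probe set read 85.7 and 193 in KO and 191 and 212 in WT, so that the groups overlapped and the lower KO mean came from KO pool 1. On both probe sets WT pool 2 was the highest array, the one that was lowest for Adipoq and Retn.

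Pparg encodes the nuclear receptor that switches on the adipocyte programme and is the target of the thiazolidinedione drugs. Pparg (Entrez gene 19016, chromosome 6) read 63.7 and 51.1 in KO and 68.8 and 68.1 in WT. The groups did not overlap, with the WT pools almost equal. The log2 fold change was -0.21 ± 0.31 (95% interval -0.97 to 0.54, limma adjusted p = 0.942). Pparg varied less between pools than the fit gave for probe sets of its brightness, at an SD of 0.13 against 0.37 on the log2 scale.

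Fabp4, the fatty acid-binding protein of adipocytes, which macrophages and capillary endothelium also make, had the most negative log2 fold change of the members. Fabp4 (Entrez gene 11770, chromosome 3) read 138 and 91.4 in KO and 236 and 169.7 in WT. Both KO pools were below both WT pools. The means were 115 ± 32.8 in KO and 203 ± 46.7 in WT (SD, n = 2 each), so KO stood at 56.5% of WT. The log2 fold change of -0.76 ± 0.27 had a 95% interval of -1.42 to -0.10 and did not pass adjustment (limma adjusted p = 0.846).

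Scd1 encodes stearoyl-CoA desaturase, which makes monounsaturated fatty acids in fat, liver and skin. Its brightest probe set (Entrez gene 20249, chromosome 19) read 5486 and 3529 in KO and 7649 and 5497 in WT, with KO pool 1 just below WT pool 2. The means were 4508 ± 1384 in KO and 6573 ± 1522 in WT (SD, n = 2 each), and the log2 fold change was -0.56 ± 0.25 (95% interval -1.16 to 0.04, limma adjusted p = 0.908). A probe set of similar brightness read 5417 and 3911 in KO and 6560.1 and 4961 in WT, with overlap and a log2 fold change of -0.31 ± 0.20. The third Scd1 probe set was dim, at 18.9 and 35.2 in KO and 14.9 and 19.8 in WT, and its log2 fold change of 0.36 ± 0.35 had the other sign.

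Scd1 and Fabp4 followed each other most closely. After each gene was centred on its mean over the 4 arrays, their Euclidean distance was 0.22 on the log2 scale, the smallest of the 36 pairs of members. Both ranked WT pool 1 first, then WT pool 2, KO pool 1 and KO pool 2, as did Pparg. The second bright Scd1 probe set ranked WT pool 1 first, then KO pool 1, WT pool 2 and KO pool 2. The largest distance, 1.67, was between Fabp4 and Pck1. These distances describe 4 arrays that all members share.

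Lipe encodes hormone-sensitive lipase, which releases fatty acids from stored fat under adrenergic and insulin control. Lipe (Entrez gene 16890, chromosome 7) read 419 and 527 in KO and 602 and 426 in WT, so the groups overlapped, with WT pool 1 the highest array and KO pool 1 the lowest. The log2 fold change was -0.10 ± 0.20 (95% interval -0.59 to 0.38, limma adjusted p = 0.955).

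Pck1 encodes the cytosolic phosphoenolpyruvate carboxykinase, which makes glucose in liver and kidney and glycerol for triglyceride in fat. Pck1 (Entrez gene 18534, chromosome 2) read 364 and 542 in KO and 276 and 258 in WT. It was the one member gene with both KO pools above both WT pools. The means were 453 ± 126 in KO and 267 ± 13.2 in WT (SD, n = 2 each), a log2 fold change of 0.71 ± 0.20 with a 95% interval of 0.21 to 1.20 that did not pass adjustment (limma adjusted p = 0.803). The 16 liver markers measured had a summed signal of 1330 and 1552 in KO and 2039 and 2350 in WT, and 5 of them had the higher mean in KO and 11 the lower. Only 2 of the 16, Cyp2e1 and Alb, were brighter than the median probe set, and most of that sum came from them. Cyp2e1, a cytochrome P450, read 1008 and 1095 in KO and 1484 and 563 in WT. Alb, albumin, read 78.7 and 95.2 in KO and 230.0 and 1016 in WT. Between the WT pools they went opposite ways, Cyp2e1 higher in pool 1 and Alb in pool 2. The 8 kidney markers summed to 152 and 156 in KO and to 164 and 163 in WT, 5 with the higher mean in KO and 3 with the lower. None of these 8 was brighter than the median probe set, so their values may be background. The part of either tissue in the Pck1 values was not tested.

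Car3 encodes carbonic anhydrase III, abundant in both adipocytes and slow muscle fibres. Car3 (Entrez gene 12350, chromosome 3) read 7181 and 7798 in KO and 7679 and 7091 in WT. The 4 arrays lay within a ratio of 1.10 of each other, the narrowest spread of the members. The log2 fold change was 0.02 ± 0.11 with a 95% interval of -0.26 to 0.30 (limma adjusted p = 0.989). The 10 slow-fibre markers measured did vary, with a summed signal of 24494 and 23243 in KO and of 19054 and 28507 in WT.

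**Figure D2:**
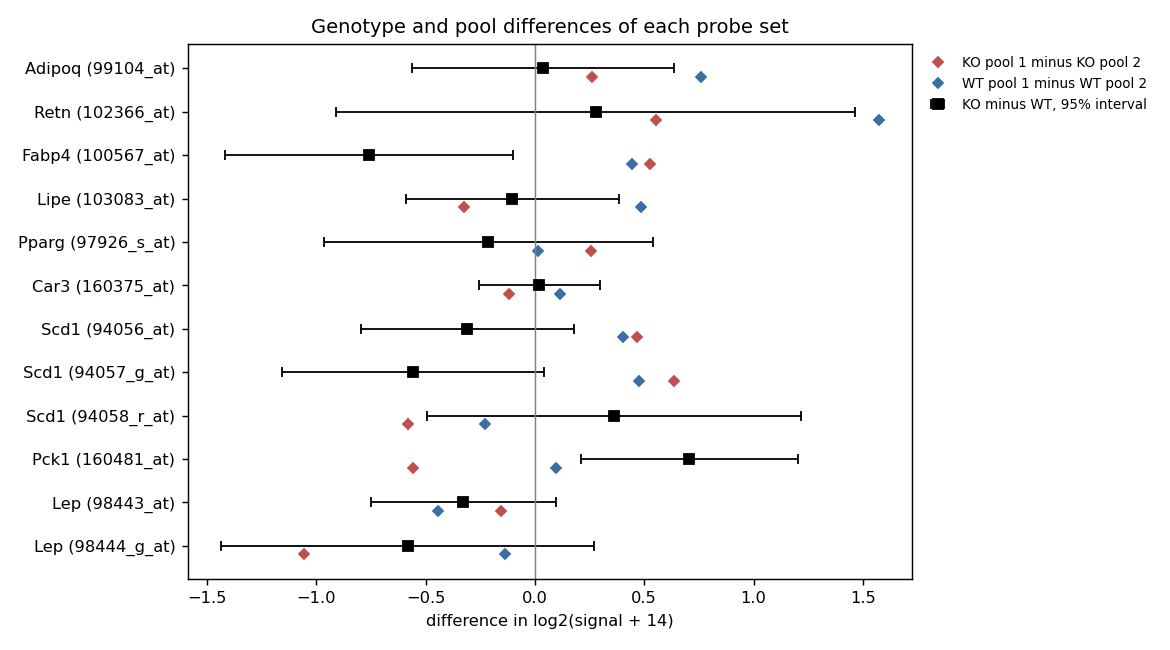
Difference in log2(signal + 14) for each of the 12 probe sets. Squares with bars are KO minus WT with 95% intervals from limma, and diamonds are the difference between pool 1 and pool 2 within KO (red) and within WT (blue). The intervals of Fabp4 and Pck1 leave out 0 before adjustment, and for Retn the WT pools differ by 1.57.

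Groups that did not overlap were counted for 5 of the 9 genes, 4 of them lower in KO (Lep, Pparg, Fabp4 and Scd1) and Pck1 higher. Over all probe sets 34.6% did not overlap, 17.6% lower and 17.0% higher in KO. With 2 arrays against 2, an exact two-sided permutation test cannot give a p below 0.333. These counts moved with single arrays of both genotypes. Without WT pool 2, 8 of the 9 genes had a KO mean below WT and 7 did not overlap in that direction, where 49.6% and 32.8% of all probe sets did. Without WT pool 1 the KO mean was below WT for 4 genes (50.3% of all probe sets), and 4 lay wholly above it in KO (32.9% of all probe sets). Without KO pool 1, 2 genes lay wholly above WT, where 36.7% of all probe sets did.

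For 7 of the 9 genes the KO minus WT difference was smaller than the larger of the 2 pool differences, a share like that of all probe sets (78.0%). The other members were Fabp4 and Pck1. WT pool 1 exceeded WT pool 2 for 8 of the 9 genes, all but Lep, and over all probe sets for 48.2%. The median difference between these pools was 0.44 on the log2 scale for the members and -0.01 over all probe sets. As each pool has 1 array, this difference has no test.

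Retn differed most between the WT pools, by 1.57 on the log2 scale, or 3.13 times in signal. It was the only member past 2-fold there, where 6.86% of all probe sets were. Adipoq followed at 0.76, or 1.70 times. Lipe, Scd1 and Fabp4 differed by 0.49, 0.48 and 0.44, Car3, Pck1 and Pparg by 0.11, 0.10 and 0.01, and Lep by -0.44. The within-genotype SD was 0.83 for Retn, where the fit's trend with brightness gave 0.15, 0.40 for Adipoq, where it gave 0.11, and 0.40 for Scd1, where it gave 0.12.

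WT pool 1 was the highest of the 4 arrays for 6 of the 9 genes (Adipoq, Retn, Lipe, Pparg, Fabp4 and Scd1), and for 23.6% of all probe sets. WT pool 2 was the lowest array for 4 genes (Adipoq, Retn, Pck1 and Car3), and for 24.1% of all probe sets. KO pool 1 was above KO pool 2 for 5 of the 9 genes, where 45.6% of all probe sets were. In KO, Scd1, Retn and Fabp4 were higher in pool 1, by 0.63, 0.55 and 0.53, whereas Pck1 and Lipe were higher in pool 2, by 0.56 and 0.32. No member gene reached 2-fold between the KO pools on its brighter probe set (6.8% of all probe sets), and the second Lep probe set did, at -1.05.

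**Figure D3:**
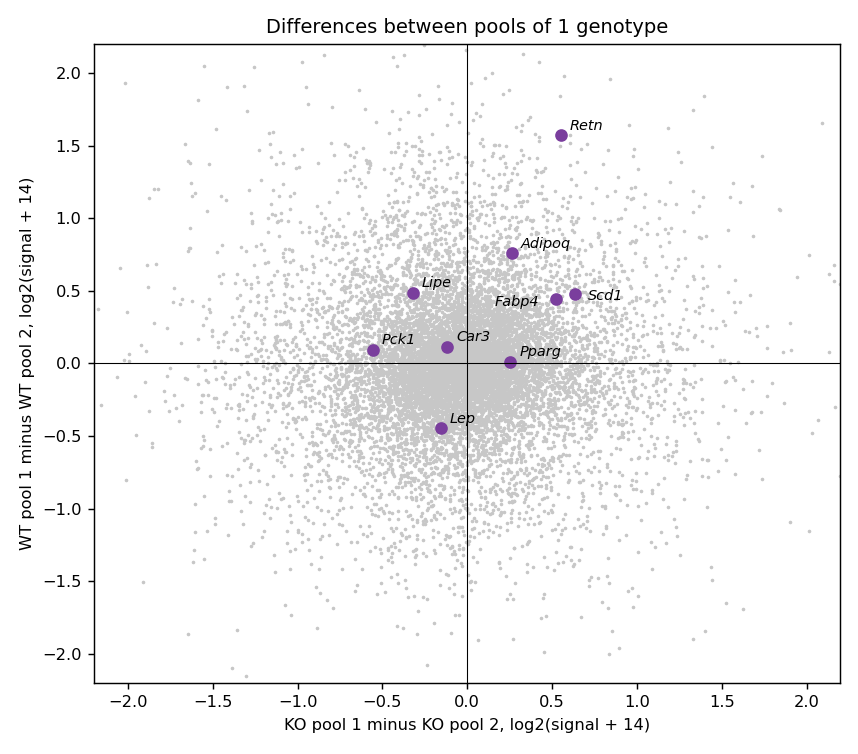
Difference between pool 1 and pool 2 in KO (x axis) and in WT (y axis), in log2(signal + 14), for all 12422 probe sets (grey, of which 53 lie outside the axes) and the 9 adipocyte genes (purple). The adipocyte genes other than Lep lie on or above the horizontal line, with Retn at 1.57.

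Probe sets of other genes were ranked by the distance of their pattern to the mean pattern of the members. Among 5610 named probe sets of other genes brighter than the median, the profiles nearest to the mean centred profile of the 9 members were those of Pdia6, Orc6, Fam114a2, Pstpip2, Raly and Zfp871. Their Euclidean distances were 0.02 to 0.06 on the log2 scale over the 4 arrays. Small distances follow from taking the 6 nearest of 5610 probe sets. The mean profile itself was 0.01 in KO pool 1, -0.11 in KO pool 2, 0.25 in WT pool 1 and -0.14 in WT pool 2. Single members departed from it, with Pck1 at 0.63 in KO pool 2 and Retn at -0.92 in WT pool 2.

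Beyond the members, 80 further genes related to fat cells or their hormones were listed in 6 groups and 65 were measured. Not all of them are particular to fat. None passed the test (limma, lowest adjusted p = 0.803), and their median log2 fold change was -0.06. An unadjusted p under 0.05 was reached by 5 (5.43% of all probe sets), 2 with the higher mean in KO and 3 with the lower. The groups did not overlap for 13 genes lower and 8 higher in KO, where 17.6% and 17.0% of all probe sets did not, so these counts lay near the share over the whole array. WT pool 1 exceeded WT pool 2 for 45 of the 65 (48.2% of all probe sets), with a median difference of 0.18, and was the highest array for 28 (23.6% of all probe sets).

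Of 17 genes of the lipid droplet, lipolysis and fatty acid uptake, 14 were measured, 4 with a higher and 10 with a lower mean in KO (median log2 fold change -0.10). Cidea, a lipid droplet protein best known from brown fat, read 96.7 and 93.2 in KO and 38.6 and 15.2 in WT, a log2 fold change of 1.48 ± 0.40 (limma adjusted p = 0.803). Abhd5, the activator of adipose triglyceride lipase, had -0.34 ± 0.17. The lipase itself, Pnpla2, had -0.17 ± 0.14. Lpl, lipoprotein lipase, had 0.09 ± 0.11, and 0.30 ± 0.23 on a dimmer probe set. WT pool 1 exceeded WT pool 2 for 12 of the 14.

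Fatty acid and triglyceride synthesis had 14 of 19 genes measured, 5 with a higher and 9 with a lower mean in KO (median -0.03). Scd2, a desaturase related to Scd1, read 392 and 357 in KO and 438 and 554 in WT, a log2 fold change of -0.38 ± 0.15, with -0.12 ± 0.22 on its other probe set. Gpd1, which makes glycerol phosphate, had -0.29 ± 0.16 and, on a dimmer probe set, 0.33 ± 0.32. Malic enzyme (Me1) had -0.03 ± 0.10 and the insulin-responsive glucose transporter Slc2a4 had -0.13 ± 0.11, with -0.36 ± 0.34 on a dim probe set.

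Adipogenic transcription factors had 16 of 19 genes measured, 7 with a higher and 9 with a lower mean in KO (median -0.02). Cebpa, the partner of Pparg in mature fat cells, read 994 and 886 in KO and 1125 and 797 in WT, with a log2 fold change of -0.01 ± 0.18. Its arrays ranked as those of Adipoq and Retn, and as those of markers of other cell types such as Lum of stromal cells. Cebpd, which acts early in differentiation, had -0.44 ± 0.18 and the early B-cell factor Ebf2 -0.52 ± 0.23. Srebf1, which drives lipid synthesis genes, had 0.14 ± 0.10.

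Other secreted products of fat had 13 of 16 genes measured, 4 with a higher and 9 with a lower mean in KO (median -0.14). Rbp4, the retinol carrier, and Hp, haptoglobin, both made by liver as well as fat, had log2 fold changes of -1.11 ± 0.18 and -0.87 ± 0.25 (limma adjusted p = 0.803 for both). Hp read 758 and 547 in KO and 1505 and 934 in WT. Apoe, apolipoprotein E, read 2065 and 2151 in KO and 2658 and 1652 in WT, with a log2 fold change of 0.01 ± 0.22, and -0.41 ± 0.34 on a dim probe set.

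Receptors of these hormones had all 5 genes measured, 2 with a higher and 3 with a lower mean in KO (median -0.20). The adiponectin receptors had 0.13 ± 0.10 for Adipor2 and -0.31 ± 0.19 for Adipor1, and Cdh13, T-cadherin, which binds adiponectin, -0.30 ± 0.16. The leptin receptor Lepr was dim, at 45.6 and 24.7 in KO and 14.9 and 3.56 in WT (log2 fold change 1.09 ± 0.40), and its other probe set had -0.18 ± 0.19. Of 6 brown adipocyte genes 5 were measured, Cidea among them, 4 with a higher and 1 with a lower mean in KO (median 0.19). None of these 5 was brighter than the median probe set. Ucp1 overlapped between groups, at 23.2 and 43.7 in KO and 27.9 and 25.2 in WT (log2 fold change 0.19 ± 0.38). Dio2, the deiodinase that activates thyroid hormone, had 0.095 ± 0.33 and Bmp8b 0.50 ± 0.49.

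Markers of other cell types also differed between the pools. WT pool 2, low for Adipoq and Retn, was the lowest array for 10 of 11 lymphocyte markers (24.1% of all probe sets). Their summed signal was 1176 and 1596 in KO and 1456 and 628 in WT. WT pool 2 was the highest array for 8 of 10 slow-fibre and 9 of 16 liver markers. The share of all probe sets highest in WT pool 2 was not counted. Only 2 of the 16 liver markers were brighter than the median probe set. WT pool 1 was the highest array for 8 of 10 stromal markers (23.6% of all probe sets). The stromal sums were 10642 and 9322 in KO and 11094 and 9558 in WT. Endothelial sums were 1922 and 1939 in KO and 1965 and 1904 in WT for 9 genes, and macrophage sums 1587 and 1754 in KO and 1770.1 and 1556 in WT for 10 genes. The 11 exocrine pancreas markers summed to 11102 and 3690.3 in KO and to 1635 and 1647 in WT. All 11 had the higher mean in KO, with a median log2 fold change of 2.02. Of them, 9 had an unadjusted p under 0.05 (limma, 5.43% of all probe sets) and 0 passed adjustment. The 9 skin markers summed to 945 and 1081 in KO and to 1068 and 643 in WT. No marker of any list was at 0 on any array. The part of these cell types in the adipocyte values was not tested.

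**Figure D4:**
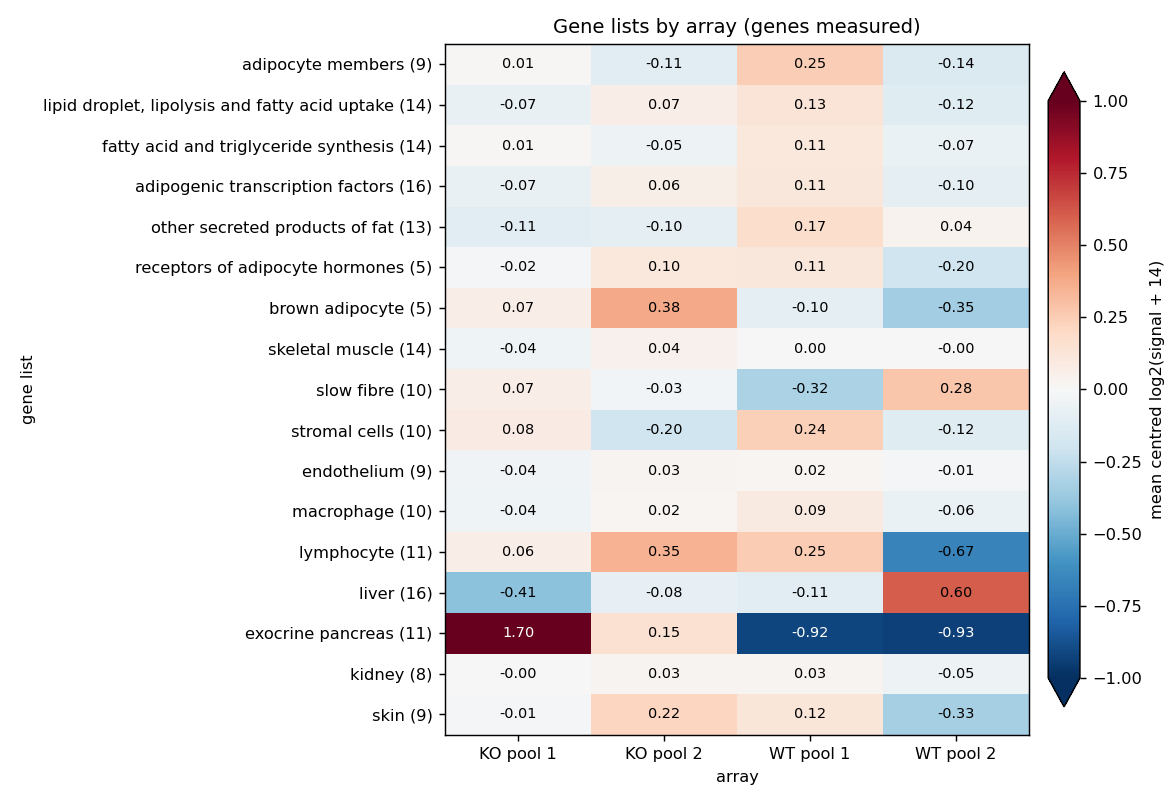
Mean of log2(signal + 14), centred on each gene's mean over the 4 arrays, for each gene list (rows, number of genes measured) and array (columns). The adipocyte genes are highest in WT pool 1 (0.25) and lowest in WT pool 2 (-0.14), and the lymphocyte markers are lowest in WT pool 2 (-0.67).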

How the data were processed

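Muscle RNA of 2 KO and 2 WT pools was measured on 1-colour arrays. The authors deposited linear signal intensities that had been brought to 1 scale: after trimming 2% of probe sets at each end, every array averaged 200.2. How they summarised probes, corrected background or called detection is not stated in the labels. Groups come from the sample titles, since the labels exchange the tissue and genotype fields.

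Of 12488 probe sets, 66 controls were left out. Without a filter, log2(intensity + 14) was modelled by genotype, the pseudocount standing at 20% of the median signal. The tool was limma 3.58.1 (R 4.3.3), by lmFit and eBayes with an intensity trend (Benjamini-Hochberg over all probe sets, two-sided, threshold 0.05). On simulated data the fit recovered 20% of 2-fold and 60% of 4-fold changes at the adjusted threshold, so smaller changes would mostly be missed. Probe sets were named from the platform annotation, 10833 with 1 symbol, 396 with several and 1193 with none, and symbols were updated for 10817 through GRCm38.p6. Where a gene had several probe sets, the one with the highest mean stood for it in counts.

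The members and lists were chosen with earlier results of these data known. Named genes were all members, Crhr2, the 2 genes of smallest p and the 2 brightest of each fat list, and the 6 nearest profiles. Ucp1 and single markers of other cell types were named besides. Alternatives were other pseudocounts, a filter, quantile or median scaling, no trend, a replicate block and leaving out each array.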

Additional observations from a re-analysis of the deposited data

How the results depend on the processing

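No member passed the adjusted threshold under any alternative run (0 of 12 probe sets, or of those left by the filter, and 0 of all probe sets in each; lowest member adjusted p = 0.598). Probe sets with an unadjusted p under 0.05 numbered 674, and 345 when those dimmer than the median were left out, where fewer were tested. The members' median log2 fold change of -0.10 ranged from -0.34 (without WT replicate 2) to 0.078 (without WT replicate 1) over the arrays left out.

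Without single arrays, 4 members changed sign: Adipoq ranged from -0.34 to 0.41, Retn from -0.51 to 1.06, Lipe from -0.35 to 0.14 and Car3 from -0.039 to 0.080. The cause was not tested. The others kept their sign but moved by over 1.5 times: Fabp4 ranged from -1.02 to -0.50, Pck1 from 0.43 to 0.99, Pparg from -0.34 to -0.085, Lep from -0.55 to -0.10 and -1.11 to -0.055 on its 2 probe sets, and Scd1 from -0.88 to -0.24, -0.54 to -0.074 and 0.072 to 0.65 on its 3. In counts added after seeing the data, members with a lower KO mean (5) ranged from 4 to 8 over the arrays left out, those wholly lower in KO (4) from 4 to 7 and those wholly higher (1) from 1 to 4. WT replicate 1 exceeded WT replicate 2 for 8 members, and for 7 with arrays centred on the median; the other pool counts did not move under other pseudocounts or scalings. Same-numbered arrays did not deviate together (correlation 0.0034 across probe sets), and with replicate number as a block 0 probe sets passed and the members' median stayed at -0.10. Having 2 arrays a genotype limits precision. No detection calls were given, so dim probe sets may be background.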
